A study of Caenorhabditis elegans with 10 samples.

Results

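The 7 fatty acid desaturase genes of Caenorhabditis elegans, fat-1 to fat-7, were examined on all 10 whole-animal arrays of a study of wdr-23 mutants. They were found by gene symbol among the probe sets that the array annotation assigns to a single gene, and 7 of 17118 genes so named were members. Each had 1 probe set, and all 7 were bright enough to be tested among 15783 probe sets (12061 genes). The arrays formed 3 groups, made up of wdr-23 mutants on skn-1 RNAi bacteria (n = 3), wdr-23 mutants on control RNAi bacteria (n = 4), and the N2 wild type on control RNAi bacteria (n = 3). Both mutant groups carried the same wdr-23 allele, which the sample labels write as tm1718 and the series text as tm1817. Animals were synchronised as first-stage larvae, grown until most were L4 larvae on HT115 bacteria in the presence of lactose (0.2%) and carbenicillin (50 ug/ml), and pooled at 200 to 500 worms per replicate. N2 animals on skn-1 RNAi were not measured, so an effect of skn-1 RNAi outside the mutant could not be tested, and the control RNAi plasmid is not named in the labels.

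Desaturases place double bonds in fatty acids and thereby set how unsaturated membrane and storage lipids are. In C. elegans, FAT-5 desaturates mainly palmitic acid, and FAT-6 and FAT-7 are stearoyl-CoA desaturases that make oleic acid. FAT-2 turns oleic acid into linoleic acid, FAT-1 converts omega-6 into omega-3 fatty acids, and FAT-3 and FAT-4 add the double bonds of arachidonic and eicosapentaenoic acid. SREBP (SBP-1), the Mediator subunit MDT-15 and the nuclear receptors NHR-49 and NHR-80 are known regulators of fat-5, fat-6 and fat-7. WDR-23 directs the degradation of SKN-1, the worm Nrf factor, which also acts on lipid metabolism genes. Much of the worm's fatty acid desaturation takes place in the intestine.

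The values are MAS5 signals on a linear scale, and changes are differences of log2(signal + 19), so a fold is slightly smaller than the ratio of signals. A gene was called when its adjusted p from limma (Benjamini-Hochberg, two-sided, over all probe sets tested) was under 0.05. Arrays of one group correlated at 0.9809 to 0.989 over the probe sets tested. Precision is limited by how many arrays there are. The skn-1 signal averaged 257 ± 28.0 in wdr-23 mutants on skn-1 RNAi, 474 ± 70.1 in wdr-23 mutants on control RNAi and 454 ± 68.7 in N2 animals on control RNAi (SD, n = 3, 4 and 3). The wdr-23 probe set averaged 902 ± 18.6 in mutants on skn-1 RNAi, 3259 ± 453 in mutants on control RNAi and 865 ± 151 in N2. It was higher in mutants on control RNAi than in N2 (limma adjusted p = 1.14e-08) and 3.54-fold lower with skn-1 RNAi than with control RNAi in the mutant (limma adjusted p = 2.9e-08). Its place relative to the deleted stretch is not given in the sources used here, so it does not check the genotype. RNA came from whole animals, in which fewer cells of a type and less RNA per cell cannot be told apart.

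In wdr-23 mutants the 3 genes for the enzymes that make monounsaturated fatty acids, fat-5, fat-6 and fat-7, fell at least 2-fold below N2, and none of them was called higher with skn-1 RNAi. The fat-5 signal was lower still in mutants on skn-1 RNAi. Among the 4 genes for polyunsaturated fatty acid synthesis, fat-3 fell with skn-1 RNAi and was called higher in the mutant on control RNAi than in N2, a call lost in 8 of 22 alternatives, while fat-1, fat-2 and fat-4 were not called in any comparison. In wdr-23 mutants on control RNAi against N2, 1 of the 7 desaturase genes rose and 3 fell, 4 called where 27.5% of all probe sets were called. Calls in the lower direction made up 10.1% of all probe sets, calls in the higher direction 17.4%, calls at least 2-fold lower 0.83%. With arrays centred on their median, 0 of the 7 rose and 6 fell in that comparison, while 1671 of all 15783 probe sets rose and 4613 fell. In mutants on skn-1 RNAi against mutants on control RNAi, 0 of 7 rose and 2 fell, against 22.5% of all probe sets called, 9.99% higher and 12.6% lower. At least 2-fold lower calls made up 2.56% and included no desaturase gene. In mutants on skn-1 RNAi against N2, 0 of 7 rose and 3 fell, against 6.34% called, 3.88% higher and 2.46% lower. All 3 falls were at least 2-fold, as were 0.482% of all probe sets. The median log2 change of the 7 genes was -0.29, -0.15 and -0.29 in these comparisons, and that of all genes tested was 0.03, -0.02 and 0.03. Each pair of these comparisons shares the arrays of 1 group.

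**Figure D1:**
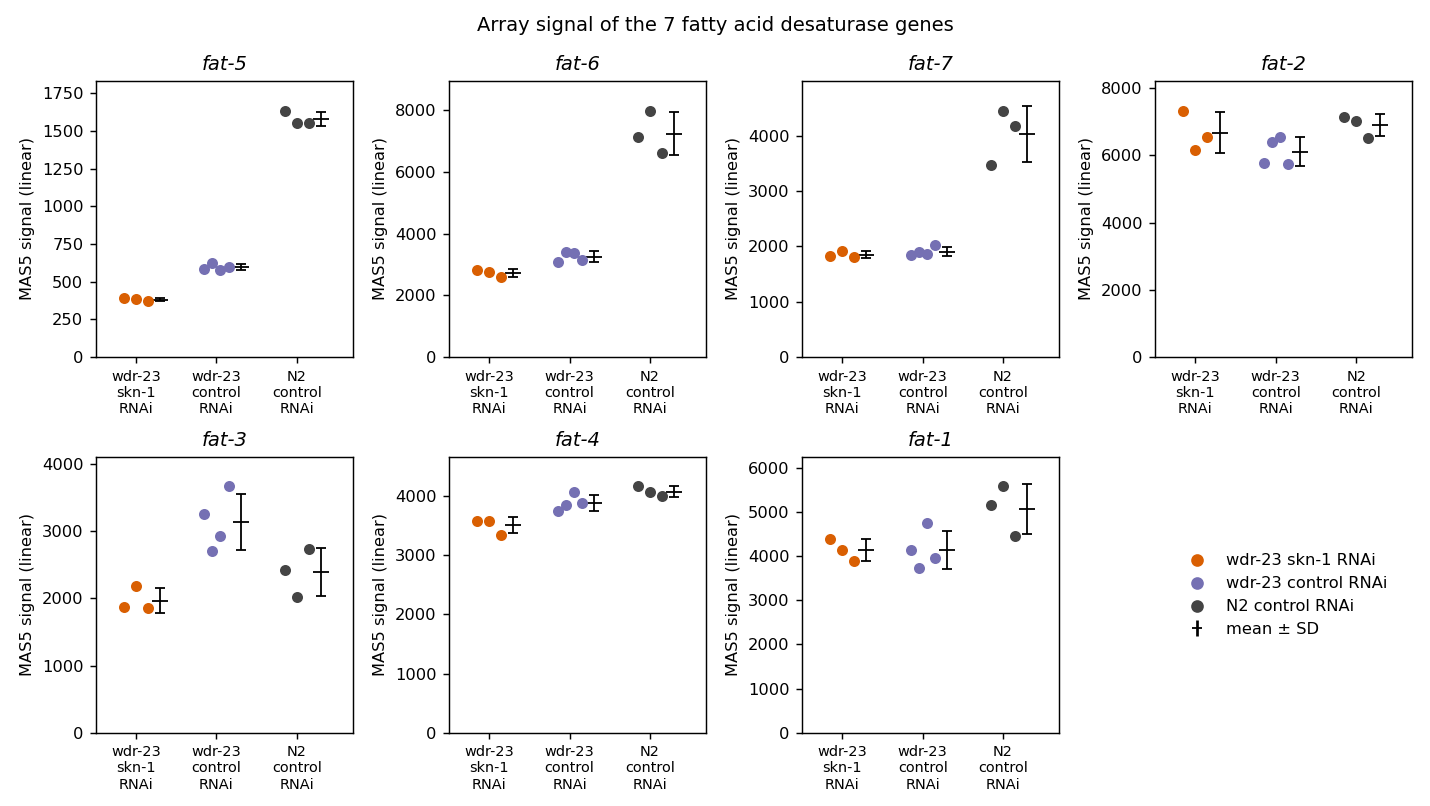
MAS5 signal (linear, each vertical axis from 0) of each desaturase gene on each array, with 1 point per array and the mean ± SD beside it, for wdr-23 mutants on skn-1 RNAi (n = 3), wdr-23 mutants on control RNAi (n = 4) and N2 on control RNAi (n = 3). All 7 mutant arrays lie below all 3 N2 arrays for fat-5, fat-6 and fat-7, and the groups lie closer together for fat-1, fat-2 and fat-4.

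For fat-5, the palmitoyl-CoA desaturase gene, signals were 392, 382 and 370 in wdr-23 mutants on skn-1 RNAi, 587, 623, 579 and 598 in wdr-23 mutants on control RNAi, and 1636, 1553 and 1556 in N2 on control RNAi. The 3 groups formed 3 separate levels with no overlap. Mean signals were 381 ± 11.2, 597 ± 19.4 and 1582 ± 47.3 (SD). In the mutant on control RNAi fat-5 was 2.60-fold lower than in N2, a log2 change of -1.38 (SE 0.10, 95% interval -1.60 to -1.16, limma adjusted p = 3.21e-08). It held rank 59 among all falls by size in that comparison. With skn-1 RNAi it fell a further 1.54-fold below the mutant control, a log2 change of -0.62 (SE 0.10, -0.84 to -0.40, limma adjusted p = 0.000501). Against N2, fat-5 was 4.0-fold lower in mutants on skn-1 RNAi, rank 7 among all falls in that comparison (log2 change -2.0, SE 0.11, limma adjusted p = 2.57e-09).

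The stearoyl-CoA desaturase gene fat-6 had signals of 2816, 2766 and 2593 in wdr-23 mutants on skn-1 RNAi, 3074, 3411, 3384 and 3144 in wdr-23 mutants on control RNAi, and 7120, 7991 and 6609 in N2. Every mutant array was below every N2 array, and the skn-1 RNAi arrays were all below the mutant control arrays. Group means were 2725 ± 117, 3253 ± 169 and 7240 ± 699 (SD). Against N2, fat-6 was 2.21-fold lower in the mutant on control RNAi (log2 change -1.15, SE 0.10, limma adjusted p = 1.39e-07) and 2.64-fold lower in the mutant on skn-1 RNAi (-1.40, SE 0.10, limma adjusted p = 1.17e-07). Between the mutant groups, skn-1 RNAi over control RNAi, the log2 change was -0.25 with an interval of -0.46 to -0.05 and did not pass the test (limma adjusted p = 0.0703). It passed with quantile normalization (-0.25, limma adjusted p = 0.0396), and with arrays centred on their median it was smaller, at -0.11 (limma adjusted p = 0.466). The probe set of fat-6 carries a suffix that marks probes able to match several transcripts, and the array annotation names fat-6 alone for it.

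Signals of fat-7, the gene of the other stearoyl-CoA desaturase, were 1820, 1919 and 1802 in wdr-23 mutants on skn-1 RNAi, 1841, 1897, 1862 and 2025 in wdr-23 mutants on control RNAi, and 3473, 4456 and 4184 in N2. The arrays of both mutant groups overlapped, and all lay below the N2 arrays. Mean signals were 1847 ± 63.0 in mutants on skn-1 RNAi, 1907 ± 82.6 in mutants on control RNAi and 4038 ± 508 in N2 (SD). The gene was lower than in N2 by a log2 change of -1.07 in the mutant on control RNAi (SE 0.11, limma adjusted p = 9.74e-07) and 2.16-fold lower in the mutant on skn-1 RNAi (-1.11, SE 0.11, limma adjusted p = 6.17e-06). Between the mutant groups the log2 change was -0.05, within an interval of -0.27 to 0.18 (limma adjusted p = 0.796), and 0.10 with arrays centred on their median.

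The falls of these 3 genes were also compared with each other. Because each array has one scale, the ratio of one gene's signal to another's within an array does not depend on the scaling, and its change between groups was compared for 3 pairs of these genes and for fat-3 with fat-4, a choice made after the values were seen. On a log2 scale the difference in the fat-5 to fat-6 ratio was -0.23 for the mutant on control RNAi minus N2, -0.37 for skn-1 RNAi minus control RNAi in the mutant, and -0.60 for the mutant on skn-1 RNAi minus N2. For the fat-5 to fat-7 ratio the differences were -0.31, -0.58 and -0.89 in the same comparisons. None of these 6 ratios overlapped between the groups compared. The exact two-sided permutation test gave p = 0.0571 with 4 against 3 arrays and p = 0.1 with 3 against 3, the smallest p each design allows, and 0.098 and 0.12 after adjustment over 12 such tests. For the fat-6 to fat-7 ratio the difference was -0.08 in the mutant on control RNAi against N2, where the arrays overlapped (exact permutation p = 0.514), -0.21 with skn-1 RNAi in the mutant and -0.29 in the mutant on skn-1 RNAi against N2.

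Of the polyunsaturated fatty acid genes, fat-3 encodes the enzyme that begins the route from linoleic to arachidonic acid. Its signals were 1874, 2180 and 1855 in wdr-23 mutants on skn-1 RNAi, 3262, 2713, 2930 and 3672 in wdr-23 mutants on control RNAi, and 2429, 2016 and 2738 in N2. All 4 mutant control arrays were above the skn-1 RNAi arrays, and 1 of them lay within the range of the N2 arrays. Group means were 1970 ± 182, 3144 ± 418 and 2394 ± 362 (SD). With skn-1 RNAi in the mutant, fat-3 fell 1.58-fold (log2 change -0.66, SE 0.13, -0.94 to -0.39, limma adjusted p = 0.00156). In the mutant on control RNAi it was 1.31-fold higher than in N2 (log2 change 0.39, SE 0.13, 0.12 to 0.66, limma adjusted p = 0.0318). This second call ended without N2 replicate 1 (0.41) or 2 (0.27), without replicate 1 (0.37) or 4 (0.31) of the mutant on control RNAi, and with arrays centred on their median (0.19). It also ended with no filter on dim probe sets (limma adjusted p = 0.0515) and with no intensity trend in the fit (0.06). Mutants on skn-1 RNAi differed from N2 by -0.27, with an interval of -0.56 to 0.02 (limma adjusted p = 0.298).

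The neighbour of fat-3 in the genome is fat-4, with 0 protein-coding genes between them on chromosome IV in the RefSeq annotation of WBcel235. FAT-4 completes arachidonic and eicosapentaenoic acid. Its signals were 3585, 3579 and 3349 in wdr-23 mutants on skn-1 RNAi, 3746, 3848, 4061 and 3885 in wdr-23 mutants on control RNAi, and 4166, 4073 and 3994 in N2. The skn-1 RNAi arrays were lower than all others, by a small margin, while the mutant control and N2 arrays overlapped. No comparison passed the test, with log2 changes of -0.15 for skn-1 RNAi against control RNAi in the mutant (-0.33 to 0.04, limma adjusted p = 0.241), -0.22 for the mutant on skn-1 RNAi against N2 (-0.42 to -0.02, 0.211) and -0.07 for the mutant on control RNAi against N2 (-0.26 to 0.12, 0.581). The fat-3 to fat-4 ratio within an array was higher by 0.46 on the log2 scale in the mutant on control RNAi than in N2. The difference between the mutant groups, skn-1 RNAi minus control RNAi, was -0.52, with no overlap of the arrays (exact permutation p = 0.0571, the smallest possible). Mutants on skn-1 RNAi and N2 overlapped in this ratio, with a difference of -0.05.

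The omega-3 desaturase gene fat-1 lies beside fat-2 on the same chromosome, also with 0 protein-coding genes between them. Signals of fat-1 were 4382, 4136 and 3892 in wdr-23 mutants on skn-1 RNAi, 4138, 3743, 4751 and 3950 in wdr-23 mutants on control RNAi, and 5171, 5587 and 4470 in N2. The arrays of both mutant groups overlapped, and those on skn-1 RNAi were all below N2. The log2 change in the mutant on control RNAi against N2 was -0.29 (-0.52 to -0.06, limma adjusted p = 0.0556), close to the threshold. It passed without N2 replicate 3 (-0.38), without replicate 3 of the mutant on control RNAi (-0.36), and with arrays centred on their median (-0.49). With the lowest 50% of probe sets left out it passed barely (limma adjusted p = 0.05 after rounding). Against N2 the mutant on skn-1 RNAi also had a change of -0.29, which did not pass (-0.53 to -0.05, limma adjusted p = 0.168). Between the mutant groups the interval ran from -0.23 to 0.23 (limma adjusted p = 0.996).

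Signals of fat-2, the gene for the enzyme that makes linoleic acid, were 7333, 6157 and 6546 in wdr-23 mutants on skn-1 RNAi, 5760, 6399, 6559 and 5735 in wdr-23 mutants on control RNAi, and 7153, 7020 and 6528 in N2. Arrays of all 3 groups overlapped. Its log2 changes were 0.13 for skn-1 RNAi against control RNAi in the mutant (-0.07 to 0.33, limma adjusted p = 0.359), -0.18 for the mutant on control RNAi against N2 (-0.38 to 0.02, 0.178) and -0.05 for the mutant on skn-1 RNAi against N2 (-0.26 to 0.16, 0.865), the last of which was 0.011 with quantile normalization. With arrays centred on their median, the change in the mutant on control RNAi against N2 was -0.38 and was called, as was that of fat-4 (-0.27). Over all probe sets tested, that centring moved the median change by -0.201 in the mutant on control RNAi against N2. For skn-1 RNAi against control RNAi in the mutant, the median moved by 0.146.

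**Figure D2:**
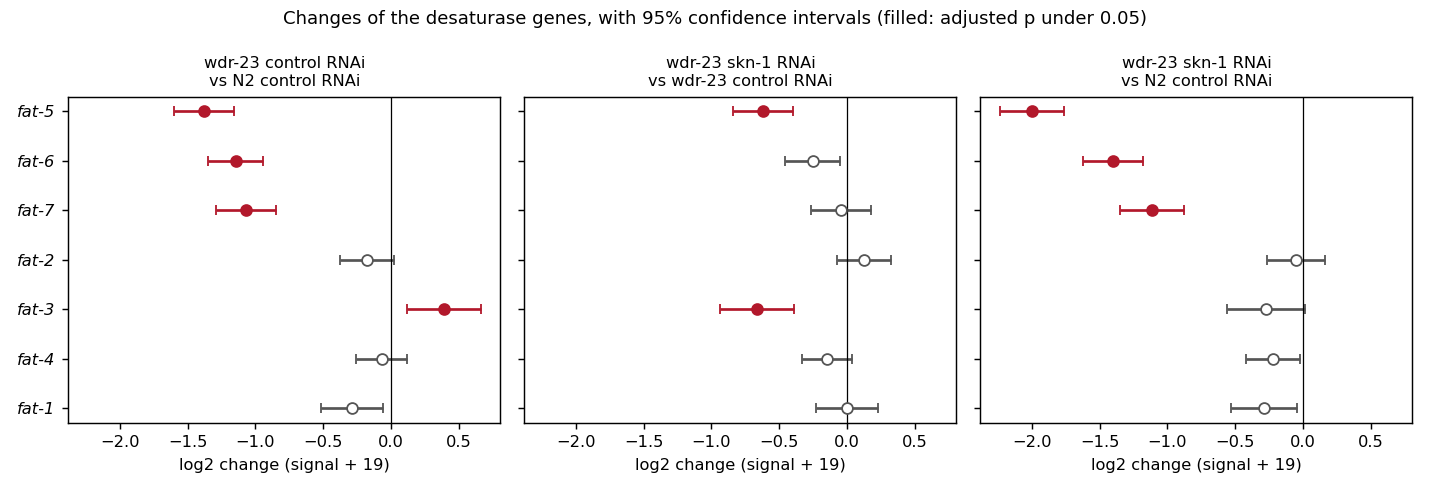
Fitted log2 change of each desaturase gene (horizontal axis, log2 of signal + 19) in the 3 comparisons, with 95% confidence intervals as bars and filled points where the limma adjusted p was under 0.05. The fat-5, fat-6 and fat-7 points lie at -1.38, -1.15 and -1.07 in the mutant on control RNAi against N2 and at -2.0, -1.40 and -1.11 in the mutant on skn-1 RNAi against N2.

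The arrays of the groups compared did not overlap for 3 desaturase genes, all lower, in the mutant on control RNAi against N2, where 13.6% of probe sets were lower without overlap. For skn-1 RNAi against control RNAi in the mutant this held for 4 genes, fat-3, fat-4, fat-5 and fat-6, against 17.5% of probe sets. In the mutant on skn-1 RNAi against N2 it held for 5 genes, fat-1, fat-4, fat-5, fat-6 and fat-7, against 11.4% of probe sets. No desaturase gene was higher without overlap in any of the 3 comparisons. The share of all probe sets higher without overlap was not computed, so this count has no background to be read against.

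Markers of the intestine and of other tissues were read on the same arrays. The summed signal of 18 intestinal marker genes ran from 65566 to 73926 in wdr-23 mutants on skn-1 RNAi, from 59068 to 66566 in wdr-23 mutants on control RNAi and from 69224 to 75383 in N2. The proteases cpr-1 and cpr-4 carried much of the lower sum in the mutant on control RNAi against N2. In mutants on skn-1 RNAi, by mean signal, cpr-4 was higher than in N2 and cpr-1 lower. The cpr-1 signal averaged 7203 ± 811, 893 ± 179 and 8601 ± 417 (SD) in mutants on skn-1 RNAi, mutants on control RNAi and N2, and cpr-4 averaged 11140 ± 974, 2354 ± 211 and 6608 ± 340. Without them, a choice made after the values were seen, the other 16 genes summed to 48979 to 53792 in mutants on skn-1 RNAi, 55776 to 63406 in mutants on control RNAi and 54053 to 60894 in N2. The mutant control arrays then overlapped with N2, and the skn-1 RNAi arrays lay below both. Of the 18, 4 were called higher and 4 lower in the mutant on control RNAi against N2, and 2 higher and 3 lower in the mutant on skn-1 RNAi against N2. The intestinal GATA factor gene elt-2 averaged 318 ± 18.9, 379 ± 60.4 and 214 ± 22.7 (SD) in mutants on skn-1 RNAi, mutants on control RNAi and N2. The gut esterase gene ges-1 averaged 673 ± 13.4, 513 ± 58.4 and 655 ± 39.5 (SD). Yolk protein genes, made in the intestine as animals mature, summed to 50522 to 64101 in mutants on skn-1 RNAi, 40132 to 41511 in mutants on control RNAi and 48062 to 61133 in N2. Of 5 yolk genes, 4 were lower in the mutant on control RNAi against N2 and 0 were called in the mutant on skn-1 RNAi against N2, where limma gave 0 at an unadjusted p under 0.05. In that last comparison fat-5, fat-6 and fat-7 were each more than 2-fold lower. The 16 intestinal markers without cpr-1 and cpr-4 also summed lower there, on every array. Germ line markers (12 genes) summed to 36356 to 39319, 28282 to 31247 and 33400 to 36712, neuron markers to 6231 to 6581, 7573 to 8548 and 6065 to 6739, and sperm markers to 7117 to 7584, 8357 to 9692 and 6197 to 6461, in the same order of groups. Epidermis markers (9 genes) summed to 53918 to 65354, 54007 to 61731 and 51089 to 65244, overlapping in all groups. Of the 9, 5 were called higher and 0 lower in the mutant on control RNAi against N2, with a list median of 0.74, and 0 higher and 5 lower with skn-1 RNAi in the mutant. The cuticle collagen gene dpy-7 averaged 417 ± 37.8 in mutants on skn-1 RNAi, 909 ± 129 in mutants on control RNAi and 267 ± 33.5 in N2. Body-wall muscle markers (10 genes) summed to 33271 to 35398, 37337 to 39766 and 36308 to 38761, lower on the skn-1 RNAi arrays than on all others. No marker was at 0, and the part of tissue makeup or stage in the desaturase changes was not tested.

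Genes of the steps around desaturation did not share one direction. Calls in these lists, and in the marker lists above, stand beside those of all 12061 genes tested. Of all genes, 18.9% were called higher and 10.2% lower in the mutant on control RNAi against N2. The shares were 9.94% and 13.1% for skn-1 RNAi against control RNAi in the mutant, and 4.12% and 2.55% for the mutant on skn-1 RNAi against N2. Electrons for desaturation come through cytochrome b5, and in the mutant on control RNAi against N2 cytb-5.2 rose by 0.47 (limma adjusted p = 0.00446) while cytb-5.1 fell by 0.55 (limma adjusted p = 0.00196). These were the calls among 4 electron donor genes tested. With skn-1 RNAi in the mutant, cytb-5.2 fell by 0.35 (limma adjusted p = 0.0299). That call ended without replicate 2, 3 or 4 of the mutant on control RNAi, or replicate 1 or 2 of the mutant on skn-1 RNAi (-0.38 to -0.27), and with no intensity trend. With arrays centred on their median neither this fall (-0.21) nor the rise against N2 (0.27) was called. In mutants on skn-1 RNAi against N2, limma called 0 of the 4, with 1 at an unadjusted p under 0.05.

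Fatty acid synthesis supplies the saturated substrates. Of 6 genes tested, 2 rose and 1 fell in the mutant on control RNAi against N2. The ATP citrate lyase gene acly-1 averaged 1137 ± 292 in the mutant on control RNAi and 585 ± 78.5 in N2 (log2 change 0.91, limma adjusted p = 0.00093), and its paralogue acly-2 averaged 1578 ± 96.7 and 2104 ± 141 (-0.41, limma adjusted p = 0.00821). The fatty acid synthase gene fasn-1 was higher by 0.66 (limma adjusted p = 0.0277), a call that ended without N2 replicate 2 (0.45) or 3 (0.69), without replicate 4 of the mutant on control RNAi (0.46) and with arrays centred on their median (0.45). The fasn-1 call also ended with no filter on dim probe sets (limma adjusted p = 0.0621) and with no intensity trend in the fit (0.0525). With skn-1 RNAi in the mutant, acly-2 rose by 0.52 (limma adjusted p = 0.00209) and the acetyl-CoA synthetase gene acs-19 rose by 0.32 (limma adjusted p = 0.0428). The acs-19 call ended without N2 replicate 1 or 2, replicate 1, 2 or 4 of the mutant on control RNAi, or any 1 replicate of the mutant on skn-1 RNAi (0.27 to 0.34). That call also ended with quantile normalization (0.29), with no intensity trend and with a fit of only the groups compared. In mutants on skn-1 RNAi against N2, limma called 0 of the 6, with 3 at an unadjusted p under 0.05.

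Fatty acid elongases lengthen the chains between desaturation steps. The 11 elongation genes tested were elo genes and let-767, hpo-8 and art-1, which are not elongase genes. Of these 11, 2 rose (18.2%) and 1 fell (9.09%) in the mutant on control RNAi against N2, close to the shares of all genes (18.9% and 10.2%). The called genes were elo-4 (0.64, limma adjusted p = 0.000536), elo-7 (0.74, limma adjusted p = 0.00588) and elo-5, a gene of branched-chain fatty acid synthesis (-0.35, limma adjusted p = 0.0157). The elo-5 call ended without N2 replicate 2 (-0.30), and with median centring its change was -0.55. With skn-1 RNAi in the mutant, elo-4 fell by 0.42 (limma adjusted p = 0.0143) and elo-5 rose by 0.35 (limma adjusted p = 0.0202). Leaving out replicate 3 of the mutant on skn-1 RNAi (-0.38) or centring arrays on their median (-0.27) ended the elo-4 call, and leaving out replicate 1 of the mutant on skn-1 RNAi (0.27) or on control RNAi (0.29) ended that of elo-5. The elo-5 rise was also not called with no intensity trend (limma adjusted p = 0.0585). Limma called 0 of the 11 in mutants on skn-1 RNAi against N2, with 1 at an unadjusted p under 0.05.

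Transcripts of the best-known regulators of fat-5, fat-6 and fat-7, named here for their role, were not called in any comparison. In the mutant on control RNAi against N2 the log2 change was 0.11 for sbp-1 (-0.19 to 0.41, limma adjusted p = 0.598), 0.08 for mdt-15 (-0.22 to 0.37, 0.71), -0.21 for nhr-49 (-0.46 to 0.04, 0.196) and -0.12 for nhr-80 (-0.50 to 0.26, 0.636). In the mutant on skn-1 RNAi against N2 these were -0.04, -0.03, -0.19 and -0.14. Of 20 regulator genes tested, 3 rose (15%) and 2 fell (10%) in the mutant on control RNAi against N2, close to the shares of all genes (18.9% and 10.2%). The nuclear receptor gene nhr-13 averaged 522 ± 54.4 in the mutant on control RNAi and 313 ± 74.6 in N2 (log2 change 0.72, limma adjusted p = 0.00226), and daf-12, the receptor of dafachronic acid, averaged 517 ± 45.6 and 312 ± 8.25 (0.69, limma adjusted p = 0.000443). The other rise, nhr-64, was small (0.34, limma adjusted p = 0.0493) and was lost in 17 of 22 alternatives, among them leaving out any 1 of the 10 arrays (0.28 to 0.39). The falls were nhr-10 (-0.70, limma adjusted p = 0.0165), lost without N2 replicate 1 (-0.68) or 3 (-0.64), and the membrane fluidity gene fld-1 (-0.62, limma adjusted p = 0.0091), lost without N2 replicate 1 (-0.53).

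With skn-1 RNAi in the mutant, 2 of the 20 regulator genes rose and 5 fell. The falls included skn-1 itself (-0.83) and nhr-13 (-0.72, limma adjusted p = 0.00308). As the target of the RNAi, skn-1 was lowered by the treatment, so its call says nothing about the other regulators. It is also counted among the pathway list genes below. The rises were iglr-2, which acts with the PAQR-2 membrane fluidity sensor (0.43, limma adjusted p = 0.0213), and the sirtuin gene sir-2.1 (0.42, limma adjusted p = 0.028). Leaving out replicate 4 of the mutant on control RNAi (0.37), or replicate 1 (0.43) or 3 (0.41) of the mutant on skn-1 RNAi, ended the iglr-2 call. Without probe sets of the suffix described for fat-6, the iglr-2 change was 0.026 (limma adjusted p = 0.93). The sir-2.1 call ended without replicate 2 (0.36) or 4 (0.39) of the mutant on control RNAi, or replicate 1 (0.32) or 2 (0.41) of the mutant on skn-1 RNAi, and with quantile normalization (0.37). Against N2, 0 rose and 2 fell in the mutant on skn-1 RNAi, the RNAi target skn-1 (-0.77) and nhr-10 (-0.92, limma adjusted p = 0.0165). The nhr-10 call ended without N2 replicate 1 (-0.90) or 3 (-0.85), or replicate 1 (-0.87) or 3 (-0.88) of the mutant on skn-1 RNAi.

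Genes of fatty acid breakdown that NHR-49 is known to activate include acs-2, an acyl-CoA synthetase gene, and icl-1 of the glyoxylate cycle. Of 6 tested, 0 rose and 2 fell in the mutant on control RNAi against N2, 0 rose and 3 fell with skn-1 RNAi in the mutant, and 0 rose and 3 fell in the mutant on skn-1 RNAi against N2. Another listed gene, lbp-8, was too dim to be tested and went the other way in the mutant on control RNAi. Its signal averaged 41.0 ± 3.09 there and 11.7 ± 1.41 in N2 (SD), with no overlap of the arrays. The acs-2 signal averaged 393 ± 21.7 in the mutant on skn-1 RNAi, 492 ± 164 in the mutant on control RNAi and 1157 ± 132 in N2 (SD). Its log2 change from N2 was -1.51 with skn-1 RNAi (limma adjusted p = 0.000139) and -1.25 with control RNAi (limma adjusted p = 0.000119). The icl-1 signal averaged 3830 ± 37.4, 5117 ± 297 and 7012 ± 399 in the same groups, and all 3 comparisons were called, with log2 changes of -0.45 for the mutant on control RNAi against N2, -0.41 for skn-1 RNAi against control RNAi in the mutant and -0.87 for the mutant on skn-1 RNAi against N2. The second of these was -0.27 with median centring. The carnitine palmitoyltransferase gene cpt-5 fell by 0.81 and the hydroxyacyl-CoA dehydrogenase gene hacd-1 by 0.75 with skn-1 RNAi in the mutant (limma adjusted p = 0.00134 and 0.000883). Against N2, the cpt-5 change was -0.72 in the mutant on skn-1 RNAi (limma adjusted p = 0.0135), a call lost without N2 replicate 1, or replicate 1 or 3 of the mutant on skn-1 RNAi (-0.72 to -0.61). List medians were 0.15, -0.42 and -0.60, against 0.03, -0.02 and 0.03 for all genes.

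Phospholipid and triglyceride assembly uses the desaturated fatty acids. Of 30 genes tested, 4 rose and 4 fell in the mutant on control RNAi against N2, 1 rose and 5 fell with skn-1 RNAi in the mutant, and 1 rose and 4 fell in the mutant on skn-1 RNAi against N2. The acyltransferase family gene acl-12 averaged 692 ± 50.3 in the mutant on skn-1 RNAi, 789 ± 153 in the mutant on control RNAi and 2323 ± 395 in N2. Its log2 change from N2 was -1.71 with skn-1 RNAi (limma adjusted p = 2.8e-06) and -1.54 with control RNAi (limma adjusted p = 9.43e-07). The choline kinase gene ckb-2 averaged 1139 ± 90.9, 1007 ± 149 and 2474 ± 127 in these groups, with log2 changes from N2 of -1.11 on skn-1 RNAi and -1.29 on control RNAi. The diacylglycerol acyltransferase gene dgat-2 averaged 651 ± 90.6, 1698 ± 259 and 1167 ± 90.5. With skn-1 RNAi it fell by 1.35 below the mutant control (limma adjusted p = 2e-06) and by 0.83 below N2 (limma adjusted p = 0.00211).

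The S-adenosylmethionine synthetase gene sams-1, which supplies methyl groups for phosphatidylcholine, averaged 4306 ± 208 in the mutant on skn-1 RNAi, 7897 ± 395 in the mutant on control RNAi and 4816 ± 165 in N2. It was higher by 0.71 in the mutant on control RNAi than in N2 (limma adjusted p = 1.44e-05) and fell by 0.87 with skn-1 RNAi in the mutant (limma adjusted p = 1.85e-06). The pcyt-1 gene, whose product makes CDP-choline, averaged 1472 ± 137 in the mutant on skn-1 RNAi, 861 ± 174 in the mutant on control RNAi and 1628 ± 271 in N2. It rose by 0.78 with skn-1 RNAi in the mutant (limma adjusted p = 0.00184) and fell by 0.91 in the mutant on control RNAi against N2 (limma adjusted p = 0.000353). Another acyltransferase family gene, acl-13, was higher than N2 by 0.67 in the mutant on control RNAi (limma adjusted p = 0.00108) and by 0.56 in the mutant on skn-1 RNAi (limma adjusted p = 0.021). The second of these calls ended without N2 replicate 1 (0.58) or 2 (0.50), or replicate 2 (0.50) or 3 (0.52) of the mutant on skn-1 RNAi, and with quantile normalization (0.47). The lipid droplet protein gene dhs-3 had a change of -0.47 in the mutant on control RNAi against N2 (limma adjusted p = 0.00634), with no overlap of the arrays. That call was not followed through the alternatives. In the mutant on skn-1 RNAi against N2 the dhs-3 change was -0.44 (limma adjusted p = 0.0416), a call lost without any 1 of the 6 arrays compared (-0.50 to -0.38). Without suffixed probe sets this second change was -0.18 (limma adjusted p = 0.581), and its call also ended with no filter and with no intensity trend.

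Polyunsaturated fatty acids are substrates of cytochrome P450 enzymes that make eicosanoids. The list tested held 9 genes, among them ceeh-1, ceeh-2 and emb-8, which are not cytochrome P450 genes. Of the 9, 1 rose and 1 fell in the mutant on control RNAi against N2. The rise was cyp-37B1, at 114 ± 22.4 against 45.8 ± 7.70 in N2 (log2 change 1.03, limma adjusted p = 0.000487), and the fall was cyp-33E2 (-0.70, limma adjusted p = 0.00239). With skn-1 RNAi in the mutant, cyp-37B1 fell by 0.80 (limma adjusted p = 0.00439). Against N2, 0 rose and 1 fell in the mutant on skn-1 RNAi, cyp-29A3 (-1.07, limma adjusted p = 0.0241). That call was lost without N2 replicate 1, 2 or 3, or replicate 1 or 3 of the mutant on skn-1 RNAi (-1.11 to -0.80), and with no filter. Its change was -1.68 with a pseudocount of 1 and -0.68 with a pseudocount of 50. Its signals were dim, at 23.2 ± 14.8 in the mutant on skn-1 RNAi and 65.9 ± 6.14 in N2.

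**Figure D3:**
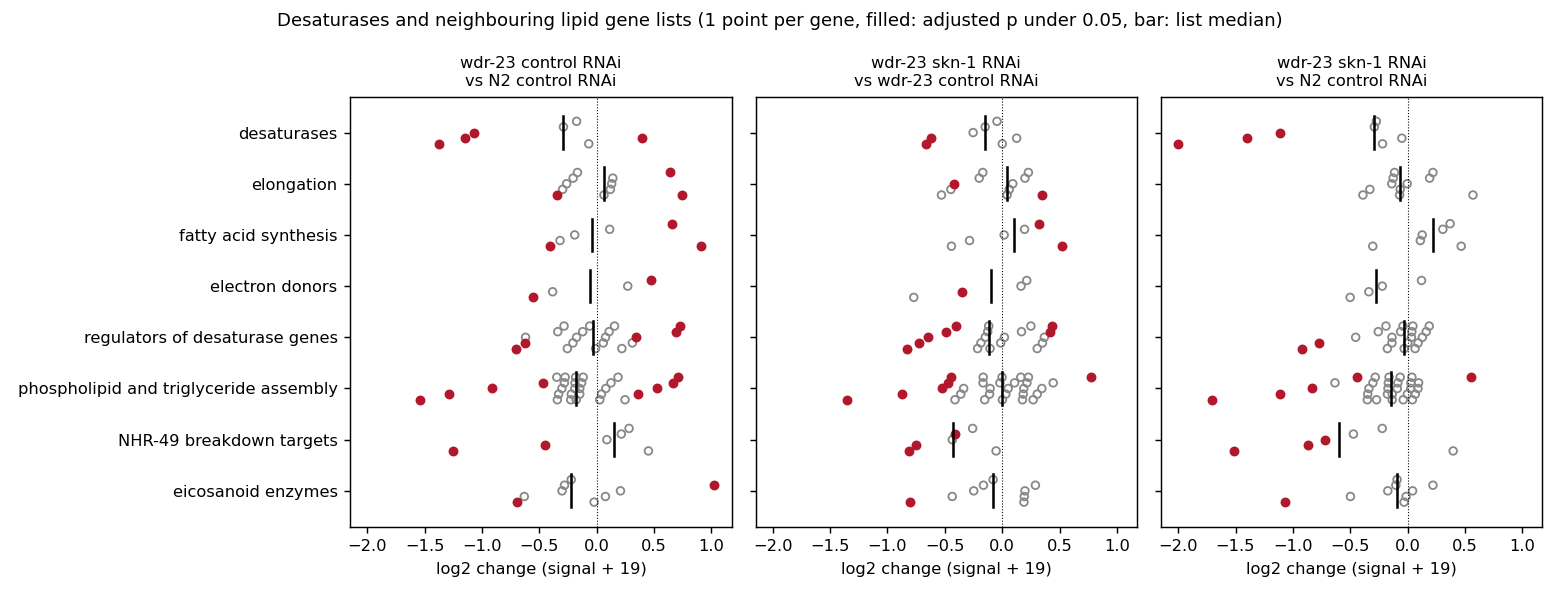
Fitted log2 change (horizontal axis, log2 of signal + 19) of every tested gene of the desaturase list and 7 neighbouring lipid gene lists in the 3 comparisons, with 1 point per gene, filled where the limma adjusted p was under 0.05, and a vertical bar at the list median. Called genes lie on both sides of 0 in most lists of the left panel, while the breakdown genes called in all 3 panels lie below 0.

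Genes whose log2 values followed each desaturase gene most closely were found by Pearson's r over the 10 arrays among 12060 other genes, as a description. The arrays fall into 3 groups, so r here mostly measures likeness of group levels. Closest to fat-5 were F54B8.4 (0.992), fat-6 (0.981) and cdd-1 (0.974). The F54B8.4 signal averaged 113 ± 6.93 in mutants on skn-1 RNAi, 167 ± 14 in mutants on control RNAi and 465 ± 23.2 in N2, a fall of 1.38 in the mutant on control RNAi against N2 on the log2 scale. Closest to fat-6 were acl-12 (0.981), fat-5 (0.981) and F54B8.4 (0.978). Closest to fat-7 were cTel55X.1 (0.98), fat-6 (0.971) and hsp-70 (0.97). The cTel55X.1 signal averaged 3.48 ± 1.63 in mutants on skn-1 RNAi, 4.84 ± 2.25 in mutants on control RNAi and 982 ± 68.1 in N2, so it was near the floor in both mutant groups. Its log2 change in the mutant on control RNAi against N2 was -5.39, where that of fat-7 was -1.07. The hsp-70 signal averaged 259 ± 38.5, 202 ± 30.3 and 1241 ± 165 in the same order of groups, far apart between N2 and both mutant groups.

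The nearest genes to the polyunsaturated fatty acid genes were different ones. For fat-3 they were sgca-1 (0.99), ugt-58 (0.966) and math-27 (0.961). The glucuronosyltransferase family gene ugt-58 averaged 797 ± 134 in mutants on skn-1 RNAi, 1408 ± 245 in mutants on control RNAi and 1006 ± 149 in N2, highest in the mutant on control RNAi as fat-3 was. For fat-1 they were the collagen genes col-146 (0.975) and col-147 (0.957) and cfim-1 (0.947). For fat-2 they were the actin gene act-3 (0.953), perm-2 (0.944) and ttr-16 (0.939), and for fat-4 dnpp-1 (0.925), skr-21 (0.922) and acer-1 (0.919). No desaturase gene was among the 3 nearest genes of fat-1, fat-2, fat-3 or fat-4.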

How the data were processed

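Total RNA (250 ng) from whole animals was hybridised to Affymetrix arrays. Intensity is given in the deposited table as MAS5 signal on a linear scale, per the submitters' processing notes, where no version is named. Each array's mean, with 2% of probe sets trimmed at each end, was 500.1 in the deposited values. Array medians ran from 113 to 139.7. Of 22625 probe sets, 77 were controls, and 20766 were assigned to 1 gene, 887 to several and 895 to none.

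Here log2(signal + 19) was computed, 19 being the rounded 20th percentile of all signals. The lowest 30% of probe sets by mean were left out. The 3 groups were fitted together with limma 3.58.1 in R 4.3.3 (lmFit, eBayes with trend, 16.4 degrees of freedom, no replicate block), after the code was tested on simulated data. The median SE of a log2 change was 0.152 to 0.163. Replicates are biological by their titles. Each gene was represented by its own probe set with the highest mean signal. Python 3.11.15 with scipy 1.17.1 gave the permutation tests.

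The members, gene lists and tests were chosen with earlier results of these data known. Named were all desaturase genes, wdr-23 and skn-1, per list and comparison the 2 strongest rises and 2 strongest falls among called genes (all, where 5 or fewer were called), and the 3 genes most correlated with each member. Likeness was taken over 10 arrays. Alternatives covered pseudocounts of 1 and 50, filters of 50% and none, median and quantile scaling, no trend, and a fit of only the groups compared. They also covered array weights, a replicate block, probe sets without suffix, probe sets chosen by mean log2, and each array left out.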

Additional observations from a re-analysis of the deposited data

How the results depend on the processing

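The calls of fat-5 and fat-7 against N2, and of fat-5 and fat-3 between the mutant groups, held in all 22 alternatives. Those of fat-6 against N2 held in the 21 that could measure it. Not all alternatives could change these results. Choosing probe sets by mean log2 repeats the main fit here, as each desaturase gene has 1 probe set. Leaving out an array of the group not compared leaves the log2 change as it was. Below, changes are log2, and the comparisons are the mutant on control RNAi against N2, skn-1 RNAi against control RNAi in the mutant, and the mutant on skn-1 RNAi against N2, in this order. Leaving out 1 array gave 3 to 5, 2 and 3 desaturase genes called, 23 to 27, 15 to 23 and 6 to 12 pathway list genes (main 25, 22 and 11), and 2848 to 4125, 2216 to 3533 and 521 to 1043 probe sets (main 4344, 3558 and 1001). The 6 arose without N2 replicate 1 or skn-1 RNAi replicate 3, and 7 without skn-1 RNAi replicate 1. Without suffixed probe sets, which leaves fewer to test, 2759, 2097 and 609 probe sets were called, and 13 pathway list genes in the second comparison. Median centring gave 6 desaturase genes called in the first comparison, all lower, and 50 pathway list genes, 8 higher and 42 lower (main 13 and 12). In the second comparison it gave 23 pathway list genes higher and 10 lower (main 6 and 16). Over all probe sets, higher and lower calls were 1671 and 4613 with median centring and 1944 and 1955 with quantile normalization (main 2754 and 1590) in the first comparison, 3463 and 1308 with median centring (main 1577 and 1981) in the second, and 476 and 514 (main 613 and 388) in the third. Directions reversed for values that were not called: fat-2 in the third comparison (0.011 with quantile normalization, -0.12 to 0.0070 leaving out 1 array, positive without skn-1 RNAi replicate 2), fat-7 in the second (0.10 with median centring), fat-1 in the second (-0.020 with array weights, -0.046 to 0.068 leaving out 1 array), skn-1 in the first (-0.14 with median centring, -0.014 to 0.17 leaving out 1 array) and wdr-23 in the third (-0.046 to 0.20 leaving out 1 array). The cause was not tested. With a replicate block, 3, 2 and 3 desaturase genes, 25, 19 and 12 pathway list genes and 3815, 2918 and 1016 probe sets were called. The block ended the calls of fat-3 (0.31), fasn-1 (0.46) and nhr-64 (0.37) in the first comparison. In the second it ended those of elo-5 (0.34), acs-19 (0.27), iglr-2 (0.37) and sir-2.1 (0.39). Directions turned for fat-1 in the second (-0.020) and skn-1 in the first (-0.014). Only the mutant on control RNAi has a replicate 4, so the block takes up that array. These changes are therefore the same as without that array, and the 2 alternatives are not independent. Residuals of same-numbered arrays correlated at -0.16 to 0.18 and those of arrays with different numbers at -0.17 to 0.17. Of 9 arrays, 4 correlated best with their own number. No pairing by replicate number was seen, but so few arrays cannot exclude it.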
